A study of Mus musculus with 8 samples.

Results

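The comparison described here is the genotype by cytokine interaction in cultured mouse liver endothelial cells: for every gene, the response to interleukin 1 beta (IL1B) plus tumour necrosis factor alpha (TNFA) in cells labelled dKO, minus the response to the same cytokines in cells labelled WT. All 8 of the 8 libraries of the series enter it, as 2 libraries in each of 4 groups: WT control, WT with IL1B and TNFA, dKO control, and dKO with IL1B and TNFA. A control and a cytokine library of the same genotype and replicate number form a pair, which gives 4 pairs, 2 per genotype. Of 52636 genes in the deposited table, 15698 had enough counts to be tested.

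The cells were isolated from mouse liver, grown in endothelial medium and exposed to 4-hydroxytamoxifen (4-OHT) for 48 hours. The protocol text is the same for both genotypes, so WT cells are taken to have had the same 4-OHT exposure; one label places the treatment in the mice and the series text places it in the culture medium. The cytokines were added 7 days after the start of 4-OHT, and the cells were lysed 16 hours later. Live cells negative for CD45 and positive for CD31 and VE-cadherin were sorted before RNA isolation. The labels do not spell out dKO; the series text names Erg and Fli1, which encode ETS-family transcription factors of endothelium, as the deleted genes. The sources used here do not give the recombinase driver, the deleted exons or the age and number of the mice. They also leave unsaid whether replicates were separate mice or cultures. The 2 WT pairs differed in genes of the sex chromosomes. Ddx3y, on the Y chromosome, was at 118 and 110.2 CPM (counts scaled to a common library size by TMM) in WT replicate 1 and 0.0337 and 0.0393 CPM in WT replicate 2. Xist, expressed from the inactive X, was high in WT replicate 2 and near 0 in WT replicate 1. The spread between the WT pairs is therefore not technical alone. In the paired fit used below each pair has its own coefficient, so differences in level between pairs do not enter its p-values. Those p-values reflect how far the cytokine responses of pairs of the same genotype differed.

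IL1B and TNFA signal through separate receptors that converge on the transcription factors NF-kB and AP-1. In endothelium they raise leukocyte adhesion molecules, chemokines and cytokines within hours, together with feedback inhibitors such as A20. Later, interferon made by the cells can activate STAT2 and IRF9, which bind interferon-stimulated response elements (ISRE) and raise antiviral genes. ERG and FLI1 bind the ETS core sequence and maintain endothelial gene expression.

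Erg stood at 196 and 186 CPM in WT control replicates 1 and 2, 208 and 201 CPM in WT with cytokines, 40.1 and 91.3 CPM in dKO control and 34.7 and 90.2 CPM in dKO with cytokines. Fli1 stood at 161 and 177, 91.5 and 96.4, 21.9 and 62.5, and 12.4 and 35.2 CPM in the same order. For both genes the dKO libraries were all lower than the WT libraries, and dKO replicate 1 was lower than dKO replicate 2. The difference in cytokine response did not pass edgeR's quasi-likelihood test for either gene (Erg -0.21 on the log2 scale, SE 0.12, adjusted p = 0.354, and Fli1 0.02, SE 0.11, adjusted p = 0.939). Library totals ran from 23009062 to 26944030 counts. The endothelial markers Pecam1 and Cdh5 stood at 797 to 1607 CPM and 1233 to 1442 CPM in WT and at 277 to 636 CPM and 163 to 600.0 CPM in dKO, while Kdr and Robo4 were near 0 in dKO replicate 1, at 1.04 to 1.25 CPM and 0.409 to 0.67 CPM.

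The promoters of the leading genes are shown first, so that the letters around their starts can be read beside the responses that follow. They span 250 bases before to 50 bases after the annotated start, 5′ to 3′ on the gene's strand, from RefSeq on build GRCm38.p6, for the 3 genes with the greatest difference in each direction that the promoter table holds. Capitals mark matches, on either strand, to the ISRE core GAAANNGAA, the AP-1 site TGANTCA, the antioxidant response element core TGACNNNGC, the ETS core GGAAGT or the kB consensus. Apol9a, Tgtp2 and Ttc39a had the more negative response in dKO, and Clec4g, Cyp26b1 and Nqo1 the more positive one. Apol9a lies at chr15:77411031-77411330, Tgtp2 at chr11:49064163-49064462, Ttc39a at chr4:109415397-109415696, Clec4g at chr8:3720602-3720901, Cyp26b1 at chr6:84593761-84594060 and Nqo1 at chr8:107403156-107403455; Ttc39a is on the plus strand and the other 5 are on the minus strand. On GRCm38, the GENCODE annotation places the protein-coding genes Usp18 at chr6:121245906-121270917, Zbp1 at chr2:173206612-173218923, Lpl at chr8:68880491-68907448, Has2 at chr15:56665627-56694539, Cxcl5 at chr5:90759360-90761624, Mmp3 at chr9:7445822-7455975, Gdf15 at chr8:70629393-70632456, Il11 at chr7:4772373-4782859 and Ntn1 at chr11:68209364-68400823.
Apol9a: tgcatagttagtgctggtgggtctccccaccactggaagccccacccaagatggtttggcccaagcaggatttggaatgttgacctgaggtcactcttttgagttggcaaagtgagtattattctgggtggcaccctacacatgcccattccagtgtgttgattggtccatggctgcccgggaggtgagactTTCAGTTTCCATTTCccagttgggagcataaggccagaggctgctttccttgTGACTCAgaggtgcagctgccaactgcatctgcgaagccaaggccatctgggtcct
Tgtp2: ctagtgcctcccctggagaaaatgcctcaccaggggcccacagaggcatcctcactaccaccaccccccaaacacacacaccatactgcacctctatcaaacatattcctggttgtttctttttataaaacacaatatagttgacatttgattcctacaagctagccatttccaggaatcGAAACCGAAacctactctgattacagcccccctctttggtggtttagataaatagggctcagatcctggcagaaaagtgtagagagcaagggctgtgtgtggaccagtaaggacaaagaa
Ttc39a: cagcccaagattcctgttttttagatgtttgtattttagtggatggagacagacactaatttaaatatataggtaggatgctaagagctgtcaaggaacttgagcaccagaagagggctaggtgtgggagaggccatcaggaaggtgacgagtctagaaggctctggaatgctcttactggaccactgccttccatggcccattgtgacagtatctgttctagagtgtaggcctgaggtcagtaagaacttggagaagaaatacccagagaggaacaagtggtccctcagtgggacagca
Clec4g: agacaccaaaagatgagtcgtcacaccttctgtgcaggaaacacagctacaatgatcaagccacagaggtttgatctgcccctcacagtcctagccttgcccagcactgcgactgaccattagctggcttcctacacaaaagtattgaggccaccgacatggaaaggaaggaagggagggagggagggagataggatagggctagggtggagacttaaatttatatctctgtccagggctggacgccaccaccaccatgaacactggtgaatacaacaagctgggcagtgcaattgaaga
Cyp26b1: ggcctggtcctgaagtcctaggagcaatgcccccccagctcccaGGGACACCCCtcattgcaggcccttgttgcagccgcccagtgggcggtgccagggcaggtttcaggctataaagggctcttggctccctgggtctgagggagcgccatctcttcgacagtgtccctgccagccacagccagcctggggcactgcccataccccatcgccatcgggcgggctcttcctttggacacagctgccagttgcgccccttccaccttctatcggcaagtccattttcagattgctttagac
Nqo1: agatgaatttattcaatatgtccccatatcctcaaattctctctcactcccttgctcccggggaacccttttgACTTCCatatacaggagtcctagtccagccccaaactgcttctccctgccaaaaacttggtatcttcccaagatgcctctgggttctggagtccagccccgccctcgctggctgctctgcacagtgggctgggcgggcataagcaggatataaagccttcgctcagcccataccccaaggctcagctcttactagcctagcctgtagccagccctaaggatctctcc

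Apol9a held overlapping matches to the ISRE core at positions -58 and -52 from its start and an AP-1 match at -6, and Tgtp2 held an ISRE match at -70. Cyp26b1 held a kB match at -206 and Nqo1 an ETS match at -177, while Clec4g and Ttc39a held no match to the 5 motifs in this window. The Ttc39a window surrounds a RefSeq start that lies inside the gene as GENCODE places it (chr4:109406623-109444745), not at the 5′ end of that annotation. Among genes with a promoter in the table, 14.2% of those with the more negative response (46 of 324) and 5.57% of those with the more positive one (21 of 377) held the ISRE core, beside 7.17% of all tested genes and 8.57% of all promoters. The kB consensus was found in 15.4% and 8.49% of the negative and positive sets, beside 10.3% of tested genes and 8.18% of all promoters. The AP-1 site was found in 9.57% and 5.84%, beside 5.24% and 7.93%. The ETS core was found in 22.5% and 19.9%, beside 27.9% and 24.1%, and the antioxidant core in 12.0% and 13.5%, beside 14.8% and 12.5%. These shares are descriptions of short letter strings and were not tested.

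With the pairs in the model, the response was more positive in dKO than in WT for 508 genes (3.24% of those tested) and more negative for 439 (2.8%) at an adjusted p under 0.05 by edgeR's quasi-likelihood test, and the median difference over all tested genes was 0. These calls rest on the pairing: edgeR without pairs called 0 genes in either direction (833 and 850 genes had an unadjusted p under 0.05), and with a single block per number shared by the genotypes it also called 0 (1049 and 968 at an unadjusted p under 0.05). DESeq2 without pairs called 160 and 231, and limma-voom with the pair as a random effect called 95 and 83. In simulated data, the share of false calls of the paired fit was above the nominal level of the threshold. More of the calls may therefore be false than the threshold implies, and adjusted p-values near 0.05 may be too small. Every one of the 947 called genes had the same direction in each of these 4 fits. The fits use the same libraries, so a kept direction is not separate support. Leaving out WT replicate 1 gave 164 and 193 genes, and leaving out dKO replicate 2 gave 1034 and 756. Of 52 called genes named by rule, 31, 34, 41 and 45 kept their call without WT replicate 1, WT replicate 2, dKO replicate 1 and dKO replicate 2. Of 33 gene lists described below, 27 held at least 1 called gene in the paired fit, 14 with the pair as a random effect and 0 in edgeR without pairs or with the shared block. The calls of each list are to be read beside 3.24% and 2.8%. Counts without each pair in turn, where given, follow the order WT replicate 1, WT replicate 2, dKO replicate 1 and dKO replicate 2. With a pair left out, 1 genotype has a single pair, and the spread comes only from the other genotype. Such counts can rise because pairs that disagreed are no longer compared, and they are not added support.

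The called genes had mostly responded in WT, with a response in dKO that was smaller or was not called. A response that was not called is not shown to be absent. In WT, 3033 genes rose (19.3%) and 2910 fell (18.5%) with cytokines, and in dKO 1992 rose (12.7%) and 1777 fell (11.3%). Of the 439 genes with the more negative response, 228 rose in WT and were not called in dKO, 143 rose in both, 40 fell only by the dKO test, 20 rose in WT and fell in dKO, and 8 fell in both. Of the 508 genes with the more positive response, 238 fell in WT and were not called in dKO, 147 fell in both, 64 were called only in dKO and rose there, 40 fell in WT and rose in dKO, 18 rose in both, and Pcnx, a gene named here after its values were seen, passed in neither. The WT response was the larger in size for 83.4% of the 947 called genes, beside 60.1% of all tested genes. These classes use the same libraries as the interaction and describe it without adding to it.

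**Figure D1:**
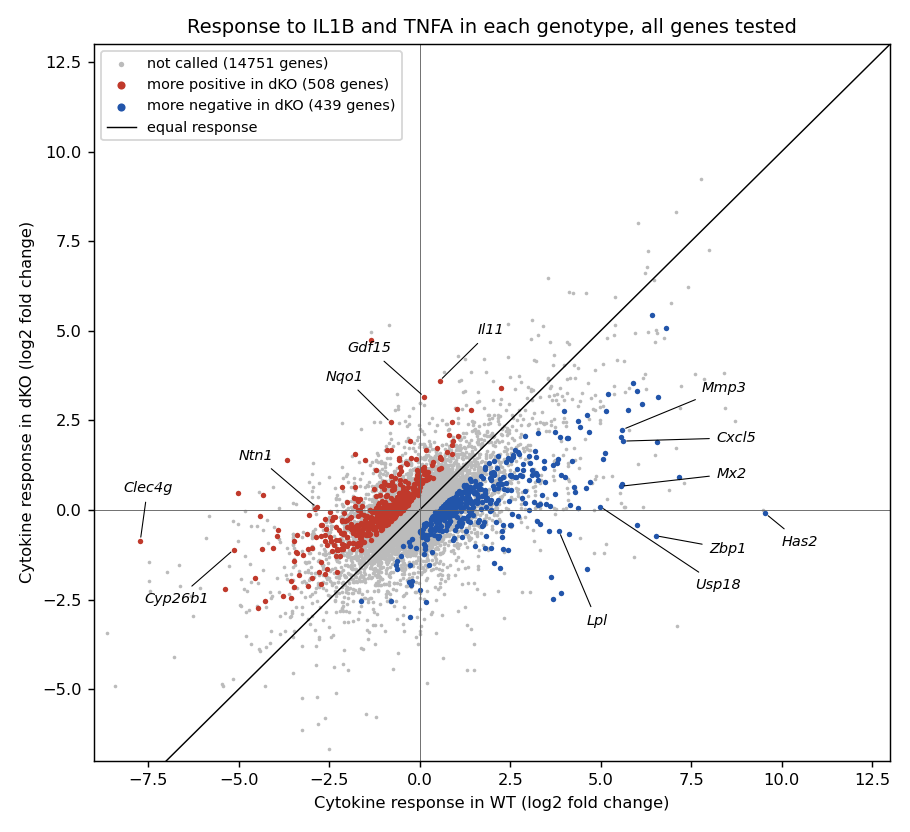
Cytokine response in WT (x axis, log2 fold change) against that in dKO (y axis, log2 fold change) for 15698 genes. Red points are the 508 genes with a more positive response in dKO, blue points the 439 with a more negative one, grey points the rest, and the diagonal marks equal responses; most blue points lie right of 0 with a dKO response near 0, and most red points lie left of 0.

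Levels of the genotypes at rest and with cytokines were compared for the called genes. A more negative response means, by definition, a dKO level that is lower relative to WT with cytokines than at rest. A more positive one means the reverse. The calls and these levels come from the same libraries. The shares below were therefore partly fixed by the calls, and they describe the calls without adding to them. Among the 439 genes with the more negative response, both dKO control libraries lay above both WT control libraries for 229 (52.2%, beside 35.9% of all tested genes), and with cytokines both dKO libraries lay below both WT libraries for 288 (65.6%, beside 36.2%). Among the 508 with the more positive response, both dKO libraries lay above both WT libraries for 212 at rest (41.7%, beside 35.9%) and for 394 with cytokines (77.6%, beside 37.2%). The gap between the genotype means was wider at rest than with cytokines for 186 of the negative genes (42.4%) and 148 of the positive ones (29.1%), beside 42.3% of the genes not called. For the negative genes this share was at the background.

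The fitted response of antiviral interferon-stimulated genes to the cytokines was lower in dKO than in WT for 36 of 37 tested members. Of these, 9 passed as more negative (beside 2.8% of all genes) and 0 as more positive, and the list had a median difference of -2.96 beside 0 for all tested genes. The median response was 3.12 in WT and 0.17 in dKO on the log2 scale. The WT pairs were unequal, with a median paired response of 3.83 in WT replicate 1 and 2.38 in WT replicate 2, while both dKO pairs were near 0 at 0.14 and 0.15. The list's summed level was 1454 CPM in control and 7416 CPM with cytokines in WT replicate 1, 1707 and 4064 CPM in WT replicate 2, 1331 and 1703 CPM in dKO replicate 1 and 1279.7 and 1555 CPM in dKO replicate 2. For 33 of the 37 genes, both dKO pairs lay below both WT pairs, as they did for 27.5% of all tested genes.

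Mx2, a dynamin-like antiviral GTPase, stood at 1.59 and 1.42 CPM in WT control replicates 1 and 2, 108 and 43.1 CPM in WT with cytokines, 0.938 and 0.665 CPM in dKO control and 0.772 and 1.77 CPM in dKO with cytokines. All dKO libraries were at the level of WT control or below, except dKO replicate 2 with cytokines, which was slightly above it. Its response was 46.7-fold in WT and 1.58-fold in dKO, a difference of -4.89 (SE 0.75, edgeR adjusted p = 0.0295). The annotation lists this gene, at chr16:97535308-97560900, as a polymorphic pseudogene. Usp18, which removes ISG15 from proteins and restrains interferon receptor signalling, went from 1.66 and 1.08 CPM to 77.3 and 20.2 CPM in WT and from 0.67 and 1.04 CPM to 1.14 and 0.707 CPM in dKO. The WT cytokine libraries alone were high, and the responses differed by -4.9 (SE 0.68, edgeR adjusted p = 0.0176).

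Zbp1, a sensor of Z-form nucleic acid that can trigger necroptosis, differed between genotypes at rest as well. It stood at 0.258 and 0.438 CPM in WT control, 59 and 14.5 CPM in WT with cytokines, 10.5 and 5.07 CPM in dKO control and 6.59 and 2.96 CPM in dKO with cytokines. The dKO controls lay above the WT controls and below the WT cytokine libraries, and the responses differed by -7.24 (SE 0.61, edgeR adjusted p = 0.00626). Herc6, a ligase for ISG15, differed by -3.03, Parp14, a mono-ADP-ribosyltransferase, by -2.51, Samd9l by -1.76, Parp9 by -1.74, Ifitm3, which blocks viral entry, by -1.1, and Ddx58, the RNA sensor RIG-I, by -1.03 (edgeR adjusted p from 0.0129 to 0.0354). Ddx58 and Ifitm3 also rose in dKO; the other 4 did not pass there.

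Several well known genes of this group did not pass. Isg15 stood at 3.51 and 4.99 CPM in WT control, 302 and 93.1 CPM in WT with cytokines, 6.17 and 3.58 CPM in dKO control and 11.6 and 7.07 CPM in dKO with cytokines. The difference was -4.36 (SE 0.91, edgeR adjusted p = 0.106); it was -5.6 for Ifit1 (SE 1.09, edgeR adjusted p = 0.0947) and -5.38 for Rsad2, which encodes viperin (SE 1.15, edgeR adjusted p = 0.106). The paired response was higher in WT replicate 1 than in WT replicate 2 for 36 of the 37 genes. The list median was -2.2 and -3.63 without WT replicate 1 and 2, and -2.89 and -2.41 without dKO replicate 1 and 2. DESeq2 with pairs called 30 members and limma-voom with pairs 14, all more negative in dKO. With the pair as a random effect limma-voom called 2 members, and edgeR called 0 without pairs and 0 with the shared block, while DESeq2 without pairs called 31.

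Interferon-inducible GTPases, which attack pathogen-containing vacuoles, had both dKO pairs below both WT pairs for 17 of 18 tested members (beside 27.5% of all genes). Of the 18, 4 passed as more negative (beside 2.8%) and 0 as more positive, all 18 differences were below 0 and the median was -2.25. Tgtp2 stood at 0.886 and 1.58 CPM in WT control, 27.8 and 17.1 CPM in WT with cytokines, 1.25 and 1.04 CPM in dKO control and 0.5 and 0.928 CPM in dKO with cytokines. The dKO libraries did not overlap the WT cytokine libraries, and the responses differed by -4.81 (SE 0.67, edgeR adjusted p = 0.0151); Tgtp2 has a near-identical copy, Tgtp1, between which reads may be split. Irgm2 differed by -2.95, Gbp11 by -1.98 and Gbp6 by -1.9 (edgeR adjusted p from 0.0343 to 0.0427). Gbp6 and Gbp11 rose in both genotypes, Gbp6 from 5.35 and 6.24 to 156 and 93.1 CPM in WT and from 5.5 and 3.74 to 30.9 and 20.5 CPM in dKO. The list median was -1.66 and -2.92 without WT replicate 1 and 2, and -2.48 and -2.15 without dKO replicate 1 and 2. DESeq2 with pairs called 13 members and limma-voom with pairs 5, all more negative. With the pair as a random effect limma-voom called 0, as did edgeR without pairs.

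**Figure D2:**
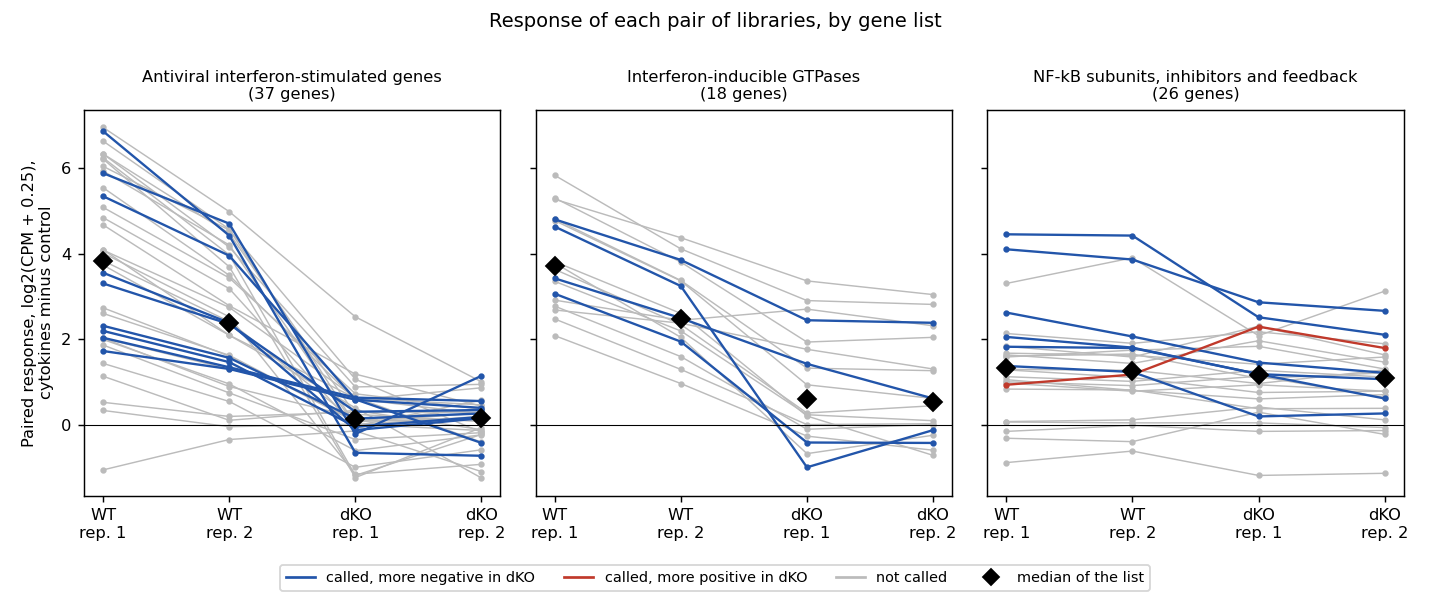
Paired response of every tested member of 3 gene lists (y axis, cytokines minus control on the scale log2(CPM + 0.25)) in each of the 4 pairs of libraries (x axis). Lines join the 4 values of a gene, blue and red lines are genes called more negative or more positive in dKO, and diamonds are list medians; the antiviral median is 3.83 and 2.38 in the WT pairs and 0.14 and 0.15 in the dKO pairs, while the NF-kB list has medians of 1.33, 1.25, 1.16 and 1.09.

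Interferon receptor, JAK-STAT and IRF genes had 0 calls by edgeR among 25 tested. Both dKO pairs lay below both WT pairs for 14 of the 25 (beside 27.5% of all tested genes) and above them for 4 (beside 27.8%). Of these 25, 8 had an unadjusted edgeR p under 0.05, and DESeq2 called 5 and limma-voom 1, each as more negative. Irf7, which amplifies interferon production, stood at 7.46 and 10.3 CPM in WT control, 207 and 71.1 CPM in WT with cytokines, 6.88 and 6.44 CPM in dKO control and 7.5 and 6.1 CPM in dKO with cytokines. This gave a difference of -3.75 (SE 0.86, edgeR adjusted p = 0.124). It was high in the WT cytokine libraries alone, but the 2 WT pairs were far apart. The differences were -1.91 for Irf9 and -1.83 for Stat2 (edgeR adjusted p = 0.0648 and 0.0659), with dKO responses of -0.43 and 0.17. Irf1, a direct target of NF-kB, rose in both genotypes by 2.22 and 1.57 (difference edgeR adjusted p = 0.137). Jak2, the kinase with the highest mean level of the list, rose in both genotypes, to 577 and 485 CPM in WT and 1418 and 1187 CPM in dKO, and the difference was -0.31 (edgeR adjusted p = 0.225). Ifnb1, which encodes interferon beta, had 12 counts in all, found only in the WT cytokine libraries (0.441 and 0.0785 CPM), and Ifng and Ifna4 had none.

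Of 22 tested MHC class I and immunoproteasome genes, 3 passed as more negative (13.6%, beside 2.8% of all genes) and 0 as more positive. All 22 differences were below 0 and the median was -0.92, with median responses of 1.73 in WT and 0.84 in dKO. Both dKO pairs lay below both WT pairs for 18 of the 22 (beside 27.5% of all tested genes) and above them for 0. DESeq2 with pairs called 10 as more negative, limma-voom with pairs 3, and limma-voom with the pair as a random effect 0. Nlrc5, the transactivator of class I genes, stood at 2.73 and 1.82 CPM in WT control, 29.2 and 10.6 CPM in WT with cytokines, 2.1 and 4.82 CPM in dKO control and 5.86 and 6.05 CPM in dKO with cytokines. It rose in WT and did not pass in dKO (difference -2.18, SE 0.46, edgeR adjusted p = 0.0454). Psmb9, an immunoproteasome subunit, and Psme1, a proteasome activator, rose in both genotypes and differed by -1.76 and -0.75. Cd274, which encodes the checkpoint ligand PD-L1, was the single call among 11 checkpoint and costimulatory ligands, of which 9 differences were below 0 (negative calls 1, 2, 0 and 0 without each pair in turn). It differed by -2.43 (edgeR adjusted p = 0.0479), from 2.55 and 2.22 to 38.8 and 12.8 CPM in WT and from 2.73 and 2.74 to 5.77 and 4.11 CPM in dKO. Of 4 tested class II genes only H2-Ab1 passed (difference -2.93), and the list had 0 calls without either WT pair. It was at 0.0739 to 2.4 CPM in WT and at 4.95 to 13.2 CPM in dKO, and rose in both.

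Chemokine genes with a more negative response in dKO were in several cases higher in dKO than in WT at rest, with similar levels under cytokines. Of 13 tested CXC and CX3C genes 4 passed as more negative, and of 10 CC genes 4 passed as more negative, with none more positive; the medians were -3.41 and -1.29. The negative calls without each pair in turn were 6, 7, 4 and 3 for CXC and CX3C genes and 2, 2, 4 and 4 for CC genes. Cxcl5, a neutrophil attractant, stood at 72.9 and 203 CPM in WT control, 5936 and 6056 CPM in WT with cytokines, 1932 and 1349.8 CPM in dKO control and 6269 and 5954 CPM in dKO with cytokines. The cytokine libraries of the genotypes overlapped and the control libraries did not (difference -3.7, SE 0.57, edgeR adjusted p = 0.0479). Cxcl3 went from 3.62 and 5.22 to 433 and 406 CPM in WT and from 53.3 and 75.2 to 550.4 and 587 CPM in dKO, and Pf4, platelet factor 4, from 2.7 and 2.8 to 92.5 and 98 CPM in WT and from 30.8 and 14.8 to 82.5 and 49.8 CPM in dKO. These differed by -3.41 and -3.54 (edgeR adjusted p = 0.00185 and 0.000111), and Cxcl1 by -1.12 (edgeR adjusted p = 0.00527); all 4 rose in both genotypes.

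Among CC chemokines, Ccl20, which attracts CCR6-bearing cells, was low at rest in both genotypes. Its controls were near each other, at 1.7 and 2.43 CPM in WT and 2.19 and 5.61 CPM in dKO, and it reached 93.6 and 131 CPM in WT but 11.8 and 45.5 CPM in dKO (difference -2.96, SE 0.22, edgeR adjusted p = 0.00176). Ccl7 rose in both genotypes, from 171 and 191 to 3105 and 2259 CPM in WT and from 1103 and 951 to 4067 and 4360.5 CPM in dKO, and Ccl9 differed by -3.55 with dKO replicates far apart at 4.18 and 88.1 CPM with cytokines. Ccl8 had 0 counts in WT control and 35 in WT with cytokines, at least 13.8-fold higher when the empty group is set to 3 counts, and its pairs overlapped between genotypes. Ccl2, the main monocyte attractant, stood at 1585 and 1624, 10333 and 8679.7, 1285 and 1664, and 8206 and 10205 CPM in the order of groups used above. Its pairs overlapped and the difference was 0.08 (SE 0.18, edgeR adjusted p = 0.827). Cxcl10, an interferon-responsive attractant of T cells, reached 500.3 and 127 CPM in WT and 1.45 and 1.68 CPM in dKO, but its difference of -6.25 did not pass (SE 2.08, edgeR adjusted p = 0.222).

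**Figure D3:**
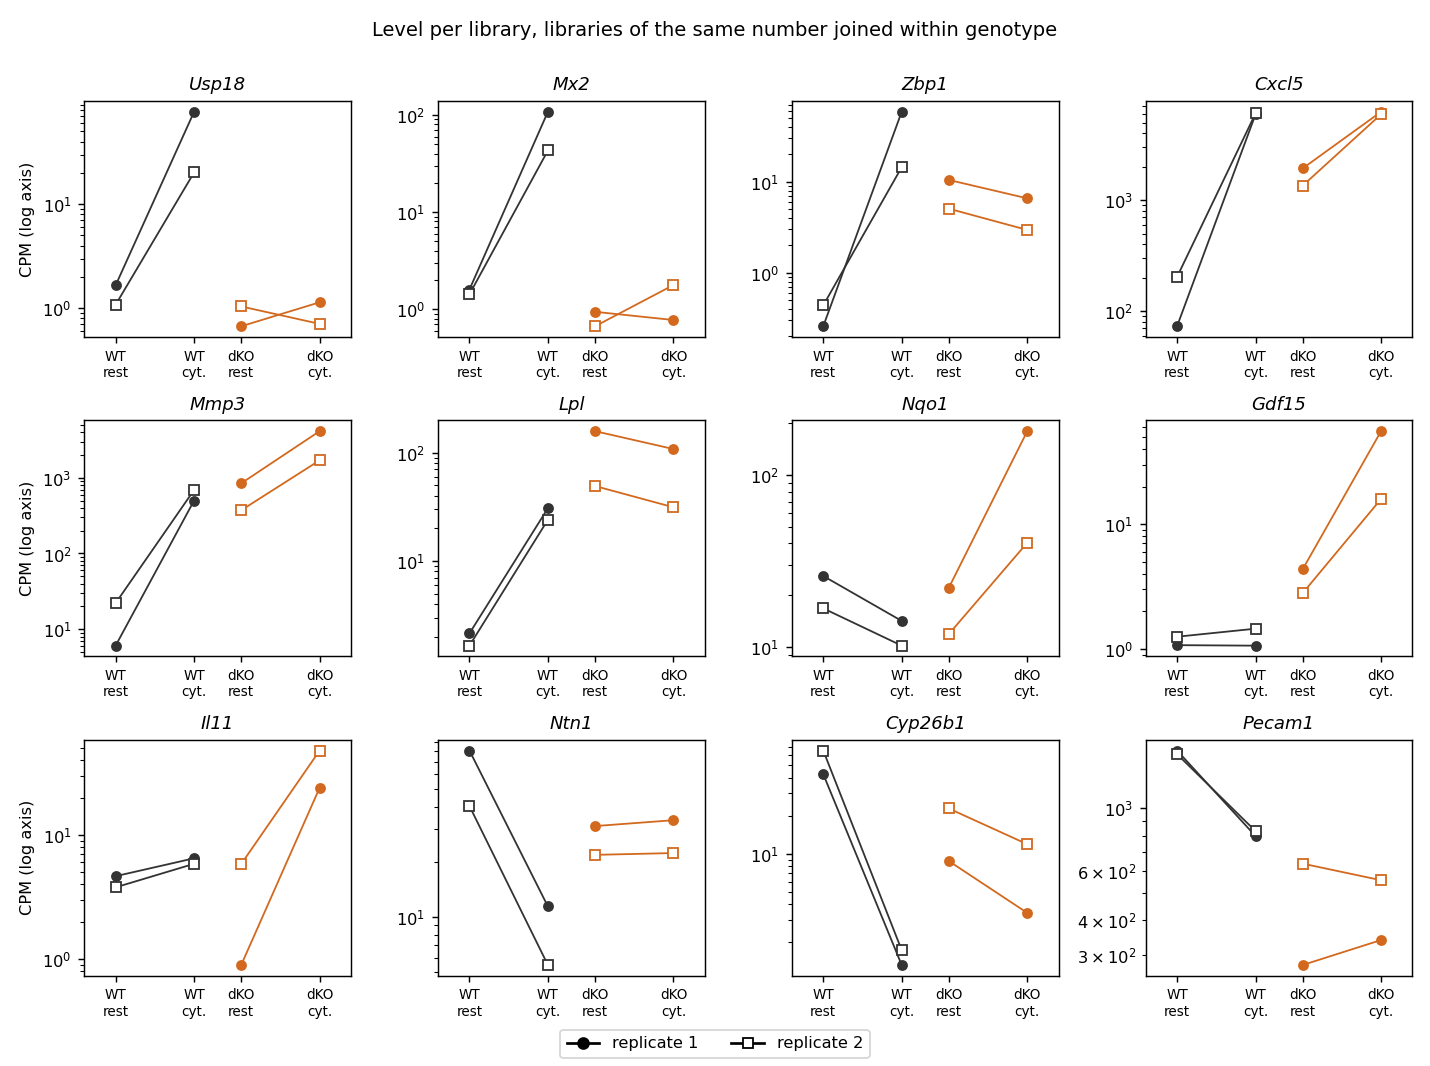
Level of 12 genes in each library (y axis, CPM on a log axis) at rest and with cytokines in WT (dark) and dKO (orange). Lines join libraries of the same number within a genotype; the dKO lines are near flat for Usp18 and Mx2 and steep for Nqo1, Gdf15 and Il11, while Ntn1 and Cyp26b1 are steeply down in WT.

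Among 21 tested interleukins and colony-stimulating factors, 2 had a more positive and 3 a more negative response (1, 1, 3 and 4 positive and 3, 3, 3 and 4 negative without each pair in turn). Il11, a cytokine linked to fibrosis, stood at 4.65 and 3.78 CPM in WT control, 6.48 and 5.85 CPM in WT with cytokines, 0.894 and 5.82 CPM in dKO control and 24 and 47.9 CPM in dKO with cytokines. It rose 12.1-fold in dKO and did not pass in WT (difference 3.04, SE 0.5, edgeR adjusted p = 0.0344). Il1a, which encodes IL-1 alpha, rose in both, from 3.88 and 3.61 to 7.98 and 7.19 CPM in WT and from 7.95 and 11.7 to 65.5 and 71.4 CPM in dKO (difference 1.8, SE 0.2, edgeR adjusted p = 0.00374). Tnfsf15, the ligand TL1A, went from 11 and 10.9 to 84.7 and 74.6 CPM in WT and from 3.98 and 6.2 to 7.09 and 15.3 CPM in dKO (difference -1.76). Tslp, an epithelial-type alarmin, reached 1480.4 and 918 CPM in WT and 118 and 277 CPM in dKO (difference -1.73), and Tnfsf10, the death ligand TRAIL, differed by -1.16. Il6 rose in both genotypes and its difference of 0.61 did not pass (edgeR adjusted p = 0.392).

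Most tested NF-kB subunits, inhibitors and feedback genes did not pass as different, which does not show that their responses were equal. Those that passed mostly had a lower response in dKO. Of the 26 tested, 6 passed as more negative (23.1%, beside 2.8% of all genes) and 1 as more positive (3.85%, beside 3.24%). The median difference was -0.15, with median responses of 1.29 in WT and 1.12 in dKO. Both dKO pairs lay below both WT pairs for 14 of the 26 (beside 27.5% of all tested genes) and above them for 3 (beside 27.8%). Tnfaip3, the deubiquitinase A20 that ends NF-kB signalling, stood at 53.9 and 46.4 CPM in WT control, 928 and 675 CPM in WT with cytokines, 91.6 and 65.5 CPM in dKO control and 665 and 416 CPM in dKO with cytokines. It was higher in dKO than in WT at rest and lower with cytokines (difference -1.22, SE 0.14, edgeR adjusted p = 0.00437). Tnfaip2 went from 80.4 and 62.2 to 1761 and 1337 CPM in WT and from 531 and 479.6 to 3028 and 2050.0 CPM in dKO, a difference of -2.14 (SE 0.17, edgeR adjusted p = 0.00185). Bcl3, an atypical IkB protein, differed by -1.08, Tnfaip8 by -1.04, Zfp36, which destabilises cytokine mRNA, by -1.04, and Relb, a subunit of the non-canonical pathway, by -0.68.

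Rel, the subunit c-Rel, was the member with the more positive response, from 21.1 and 13.3 to 40.5 and 30.4 CPM in WT and from 13.9 and 13.5 to 68.9 and 47.3 CPM in dKO (difference 1, SE 0.19, edgeR adjusted p = 0.0265). Nfkbia, the inhibitor IkB alpha, rose in both genotypes, from 396 and 361 to 1257 and 1109 CPM in WT and from 451 and 373 to 1199.6 and 1114 CPM in dKO, and the difference of -0.15 did not pass (SE 0.14, edgeR adjusted p = 0.58). Of 31 tested receptors and adaptors of TNF and IL-1, 3 passed as more negative (1, 2, 2 and 5 without each pair in turn) and 0 as more positive (3 without dKO replicate 2). Ripk2, the kinase of NOD receptors, stood at 37.8 and 42.3 CPM in WT control, 733 and 631 CPM in WT with cytokines, 43.7 and 38.7 CPM in dKO control and 159.7 and 174 CPM in dKO with cytokines. Its control libraries overlapped and its cytokine libraries did not overlap (difference -2.07, SE 0.17, edgeR adjusted p = 0.00185). Myd88 and Irak2, adaptor and kinase of the IL-1 receptor, rose in WT and did not pass in dKO, and the responses differed by -0.79 and -0.65.

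Leukocyte adhesion molecules had calls in both directions. Of 20 tested, 3 passed as more negative (beside 2.8% of all genes) and 2 as more positive (beside 3.24%). Without each pair in turn the negative calls were 1, 3, 3 and 4 and the positive ones 0, 1, 2 and 6, and with the pair as a random effect there were 0. Vcam1, which binds integrin alpha 4 on leukocytes, stood at 686 and 548 CPM in WT control, 5184 and 3291 CPM in WT with cytokines, 1179.8 and 953 CPM in dKO control and 3724 and 2612 CPM in dKO with cytokines (difference -1.2, SE 0.18, edgeR adjusted p = 0.0108). Selp, P-selectin, went from 3461 and 3976 to 12253 and 11227 CPM in WT and from 1127 and 2393 to 2121 and 3509.6 CPM in dKO (difference -0.93), and Jam3 differed by -0.85. For Vcam1 the dKO controls were above the WT controls, and for Selp they were below. Pecam1, CD31, fell in WT from 1607 and 1560.1 to 797 and 830.3 CPM and did not pass in dKO, at 277 and 636 CPM in control and 339.9 and 555 CPM with cytokines (difference 1.01, SE 0.18, edgeR adjusted p = 0.0206); CD31 was also one of the proteins used to sort the cells. Icam1 and Sele, the ligand of LFA-1 and E-selectin, rose in both genotypes and did not pass as different (differences -0.2 and 0.14, edgeR adjusted p = 0.67 and 0.943).

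Endothelial identity genes that fell in WT fell less in dKO in a few cases. Of 37 tested, 4 passed as more positive (beside 3.24% of all genes) and 0 as more negative, with a median of 0.22. The list had 0 calls without either WT pair and with the pair as a random effect, 4 positive calls without dKO replicate 1, and 8 positive and 1 negative without dKO replicate 2. Its summed level was 16624 and 16946 CPM in WT control, 10863 and 10884 CPM in WT with cytokines, 3423 and 6953 CPM in dKO control and 3035 and 5282 CPM in dKO with cytokines. In bulk libraries, fewer cells of a type and less RNA per cell cannot be told apart. Eng, endoglin, went from 3354 and 3214 to 1041 and 940.5 CPM in WT and from 559 and 960.1 to 320.3 and 417 CPM in dKO (difference 0.73, edgeR adjusted p = 0.0484), and Gata4, a determinant of sinusoidal endothelium, differed by 0.74. Both fell in both genotypes, from lower controls in dKO. Clec4g, a sinusoidal lectin, stood at 29.2 and 33.9 CPM in WT control and 0.0882 and 0.196 CPM in WT with cytokines. In dKO it had 6 counts in control and 3 with cytokines (ratio 0.52, 95% interval of the counts 0.0841 to 2.43), and the fitted difference of 6.86 (SE 1.32, edgeR adjusted p = 0.0314) compares the fall in WT with these few counts.

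Genes of the TGF-beta and BMP pathway had 6 of 30 tested members with a more positive response (beside 3.24% of all genes) and 1 with a more negative one (beside 2.8%). Without each pair in turn the positive calls were 1, 1, 4 and 12 and the negative ones 1, 1, 4 and 3, and with the pair as a random effect 1 positive call was made. Tgfb2, the ligand, stood at 102 and 77.4 CPM in WT control, 7.76 and 8.95 CPM in WT with cytokines, 83.6 and 46.9 CPM in dKO control and 47.2 and 15.9 CPM in dKO with cytokines. It fell 10.6-fold in WT and 2.25-fold in dKO (difference 2.24, SE 0.33, edgeR adjusted p = 0.0291). The inhibitory SMAD genes Smad7 and Smad6 and the co-receptor gene Tgfbr3 fell in WT and did not pass in dKO, with differences of 1.09, 0.49 and 0.69. Id2, a target of BMP signalling, went the other way in the 2 genotypes, from 324 and 248 to 449 and 353 CPM in WT and from 221 and 316 to 111 and 231 CPM in dKO (difference -1.21, SE 0.18, edgeR adjusted p = 0.0121). Gdf15, a stress-induced member of the family, stood at 1.07 and 1.25 CPM in WT control, 1.06 and 1.45 CPM in WT with cytokines, 4.33 and 2.79 CPM in dKO control and 55.6 and 15.9 CPM in dKO with cytokines. It rose 8.92-fold in dKO and did not pass in WT (difference 3.04, SE 0.48, edgeR adjusted p = 0.018).

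Of 35 tested mesenchymal and collagen genes, 5 passed as more positive (5, 3, 3 and 5 without each pair in turn) and 2 as more negative (2, 2, 2 and 9), with a median of -0.4. Lox, which crosslinks collagen, fell in WT from 172 and 202 to 66.4 and 98.2 CPM and rose in dKO from 1071 and 667 to 1297 and 945 CPM (difference 1.59, SE 0.16, edgeR adjusted p = 0.00322). Fbln2, a matrix fibulin, differed by 1.26, and Col6a3 by 2.12, from 8.2 and 7.05 to 1.59 and 2.75 CPM in WT and from 17 and 22.2 to 23.4 and 25.1 CPM in dKO. Mgp and Prrx1, which were low in WT and high in dKO at rest, differed by 1.29 and 0.89. Has2, which makes hyaluronan, had 0 counts in WT control and 183 in WT with cytokines, which is at least 71.9-fold higher when the empty group is set to 3 counts. It stood at 14.8 and 13.5 CPM in dKO control and 17.6 and 9.63 CPM in dKO with cytokines, above the 5.47 and 2.32 CPM of WT with cytokines. Col5a1 rose in WT and did not pass in dKO (difference -0.78).

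Of 18 tested prostanoid, nitric oxide and vasoactive genes, 3 passed as more positive (3, 3, 4 and 7 without each pair in turn) and 0 as more negative (2 without either dKO pair). Ace, angiotensin-converting enzyme, went from 14.4 and 26.4 to 4.41 and 8.01 CPM in WT and from 368 and 459 to 259 and 303 CPM in dKO (difference 1.16, SE 0.13, edgeR adjusted p = 0.00336), and Ptgs1, cyclooxygenase 1, from 44.4 and 35.9 to 9.79 and 7.22 CPM and from 35 and 27.9 to 17.1 and 12.1 CPM (difference 1.13). Both fell in both genotypes. Adm, the vasodilator adrenomedullin, fell in WT and did not pass in dKO (difference 0.91). Of 15 tested Notch genes, 2 passed as more positive (1 without dKO replicate 1) and 0 as more negative (1 without dKO replicate 2). Nrarp, a Notch target that dampens the pathway, went from 18.1 and 18.4 to 11.9 and 12.8 CPM in WT and from 2.99 and 8.61 to 9.9 and 20.2 CPM in dKO (difference 2, SE 0.22, edgeR adjusted p = 0.00326), and Gja4, connexin 37, rose in dKO and did not pass in WT (difference 1.69).

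Of 24 tested matrix protease and inhibitor genes, 3 passed as more negative (2, 2, 4 and 5 without each pair in turn) and 0 as more positive (0, 0, 1 and 4). Mmp3, stromelysin 1, stood at 6.06 and 22.1 CPM in WT control, 500.2 and 691 CPM in WT with cytokines, 844 and 372 CPM in dKO control and 4129.9 and 1700.1 CPM in dKO with cytokines. It rose 48.5-fold in WT and 4.73-fold in dKO, where both controls were already far above the WT controls (difference -3.36, SE 0.49, edgeR adjusted p = 0.0418). Serpinb2, an inhibitor of plasminogen activators, went from 0.591 and 1.21 to 12.9 and 17.8 CPM in WT and from 219 and 156 to 837 and 654 CPM in dKO (difference -2.08), and Mmp2 differed by -0.77. Of 17 tested acute-phase genes, 3 passed as more negative (1, 1, 2 and 4 without each pair in turn) and 0 as more positive (1 without WT replicate 1). Saa3, a local serum amyloid A, went from 480.3 and 509 to 6849 and 7105 CPM in WT and from 14140.3 and 4899 to 28537 and 17732 CPM in dKO (difference -2.38, SE 0.28, edgeR adjusted p = 0.0049), and Lcn2, which withholds iron from bacteria, differed by -1.28. Saa3 belongs to a family of similar genes, so its reads may be shared. Itih3, an inter-alpha-trypsin inhibitor chain, differed by -1.25 and fell in dKO. Of 17 complement genes, C1s1, a protease of the classical pathway, and Cr1l passed as more negative (-0.91 and -0.85) and Cd59a, which blocks the membrane attack complex, as more positive (0.71). The complement list had 0, 2, 2 and 4 negative and 0, 1, 1 and 3 positive calls without each pair in turn.

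Glycolysis and hypoxia genes had a lower response in dKO in 9 of 30 tested members (beside 2.8% of all genes) and a higher one in 2 (beside 3.24%), with a median of -0.31. Both dKO pairs lay below both WT pairs for 19 of them (beside 27.5% of all genes). The list's summed level was 11372 and 12155 CPM in WT control and 16783 and 16749 CPM in WT with cytokines. It was higher in dKO in both states, at 17732 and 15683 CPM in control and 21749 and 19714 CPM with cytokines. With the pair as a random effect limma-voom called 3 members as more negative and 1 as more positive. Pfkfb3, which makes the activator of phosphofructokinase, stood at 105 and 122 CPM in WT control, 326 and 326 CPM in WT with cytokines, 167 and 143 CPM in dKO control and 201 and 229 CPM in dKO with cytokines. The dKO cytokine libraries lay between the WT control and WT cytokine libraries (difference -1.05, SE 0.16, edgeR adjusted p = 0.0125). The hexokinase genes Hk2 and Hk1 differed by -0.65 and -0.53, the enolase gene Eno2 by -1.3, and the lactate transporter genes Slc16a1 and Slc16a3 by -1.06 and -0.89. Pfkp, Pgam1 and Pgk1, enzymes of the same pathway, differed by -0.7, -0.56 and -0.61. Epas1, the hypoxia factor HIF-2 alpha, fell in WT from 498 and 437 to 271 and 211 CPM and did not pass in dKO (difference 1.13, edgeR adjusted p = 0.0109), and Ddit4, an inhibitor of mTOR signalling, rose in both (difference 0.67). The list had 2, 4, 6 and 11 negative and 1, 0, 1 and 3 positive calls without each pair in turn.

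Antioxidant genes had the highest list median, 0.63. Of 20 tested members, 6 passed as more positive (30%, beside 3.24% of all genes) and 2 as more negative (10%, beside 2.8%). With the pair as a random effect limma-voom called 0 members, as did edgeR without pairs. Nqo1, a quinone reductase and standard target of the factor NRF2, stood at 25.9 and 16.8 CPM in WT control, 14.2 and 10.2 CPM in WT with cytokines, 22.1 and 11.9 CPM in dKO control and 179.6 and 40.4 CPM in dKO with cytokines. Control libraries of the genotypes overlapped, and both dKO cytokine libraries were above the rest (difference 3.24, SE 0.48, edgeR adjusted p = 0.0479). Nfe2l2, which encodes NRF2, rose in dKO from 292 and 330.3 to 608 and 491 CPM, beside 356 and 347 CPM in control and 372 and 378 CPM with cytokines in WT (difference 0.72, edgeR adjusted p = 0.0497). Gclc, which limits glutathione synthesis, and Cat, catalase, fell in WT and rose in dKO (differences 0.97 and 1.33), Txn1, thioredoxin, rose in dKO (0.8), and Sod3, extracellular superoxide dismutase, fell in WT (1.06). The metallothioneins Mt2 and Mt1 differed by -1.36 and -0.56. The list's median paired response was 0.89 in dKO replicate 1 and 0.36 in dKO replicate 2, and 0.02 in both WT pairs. It had 12 positive calls without dKO replicate 2, 7 without dKO replicate 1, 0 without WT replicate 1 and 1 without WT replicate 2, and its negative calls fell to 0 without either WT pair.

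**Figure D4:**
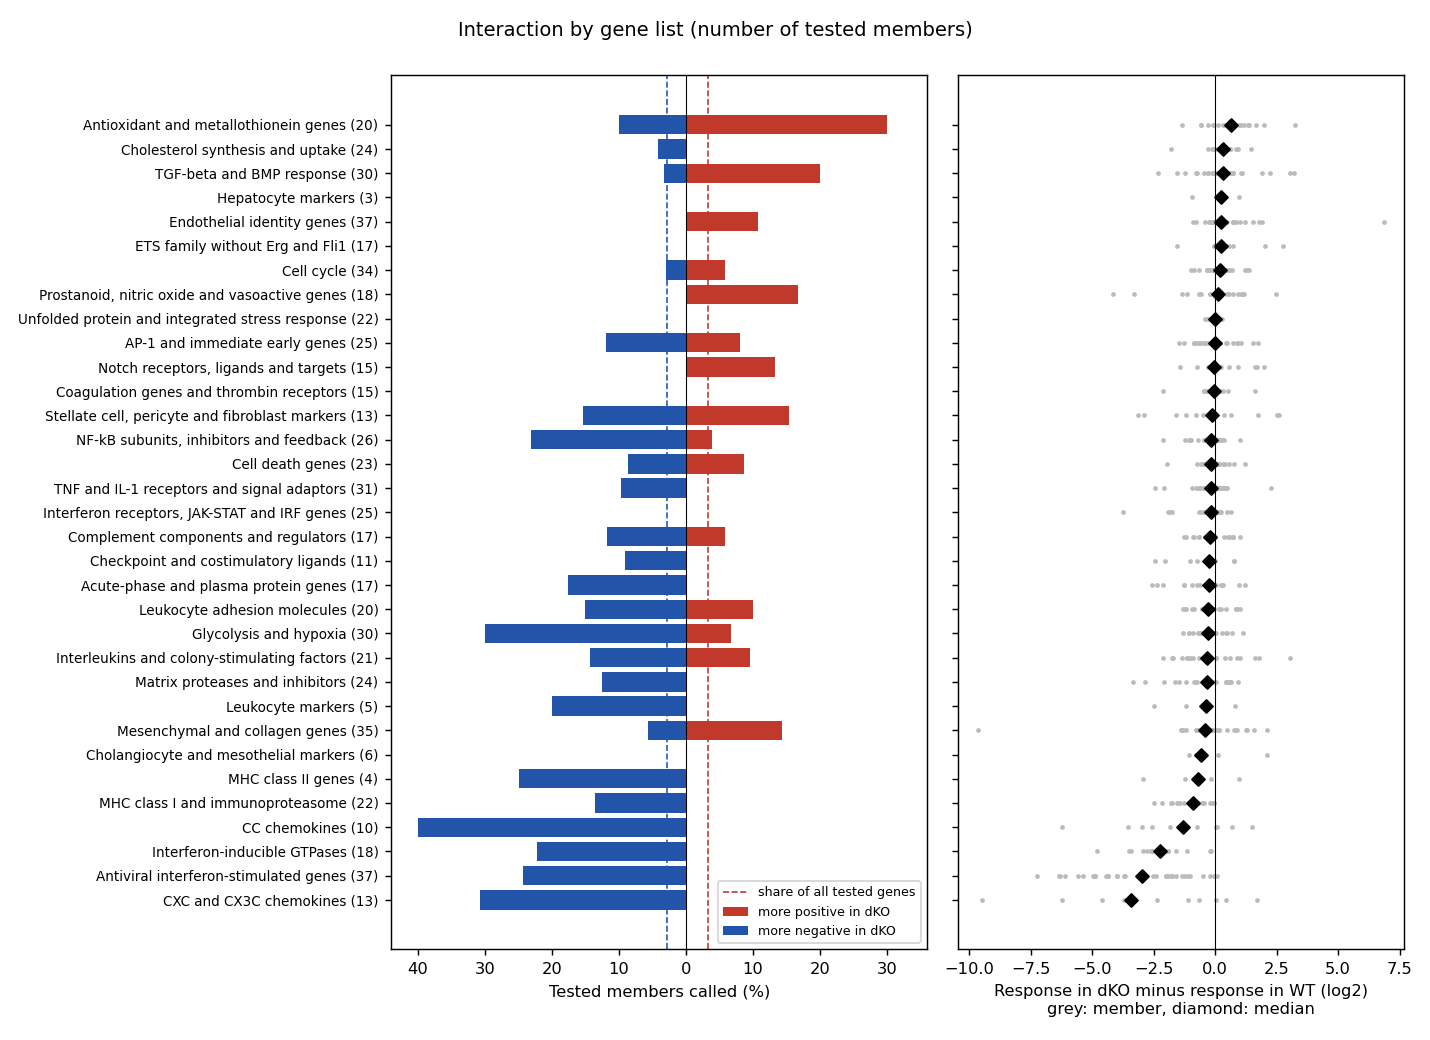
Left, percent of the tested members of each of 33 gene lists called more negative (blue, to the left) or more positive (red, to the right) in dKO, with the shares of all tested genes, 2.8% and 3.24%, as dashed lines. Right, the difference in response of every tested member (grey) and the list median (diamond) on the log2 scale, ordered by the median, from -3.41 for CXC and CX3C chemokines to 0.63 for antioxidant genes.

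Among 23 tested cell death genes, 2 passed in each direction (0, 0, 0 and 3 positive and 1, 2, 3 and 4 negative without each pair in turn). Fas, the death receptor, went from 28.8 and 34 to 203 and 161 CPM in WT and from 138 and 86.3 to 179.6 and 141 CPM in dKO (difference -1.98, SE 0.21, edgeR adjusted p = 0.00626), ending at overlapping levels. Gsdmd, the pore-forming gasdermin, differed by -0.74, and Bcl2, an inhibitor of apoptosis, rose in dKO and did not pass in WT (0.76). Of 34 cell cycle genes, Ccnd1, cyclin D1, passed as more positive, from 101 and 90.3 to 53.3 and 48.1 CPM in WT and from 37.4 and 45.7 to 46 and 62.9 CPM in dKO (difference 1.3, SE 0.12, edgeR adjusted p = 0.00227), as did E2f1 (0.68), while Mcm6, a subunit of the replicative helicase, was more negative (-0.98). The cell cycle calls made up 5.88% and 2.94% of the list, the negative share being near that of all genes, and were 1, 1, 2 and 4 positive and 0, 0, 2 and 1 negative without each pair in turn. The annotation places 23.4% of the exon bases of Ccnd1 in overlap with LTO1. Of 25 AP-1 and immediate early genes, Nr4a2 (1.75) and Jun (0.87) were more positive and Batf2 (-1.47), Ier5 (-0.86) and Klf6 (-0.8) more negative, with 1, 1, 2 and 8 positive and 0, 2, 3 and 5 negative calls without each pair in turn. Ch25h, which makes 25-hydroxycholesterol, was the single call among 24 cholesterol genes (-1.8, edgeR adjusted p = 0.00322), and 11.5% of its exon bases overlap another gene. Most of the list lay the other way, with 20 of 24 differences above 0 and a median of 0.33. Both dKO pairs lay above both WT pairs for 11 of its genes (beside 27.8% of all tested genes) and below them for 1 (beside 27.5%). The 22 unfolded protein response genes, 15 coagulation genes and 17 ETS genes other than Erg and Fli1 had 0 calls by edgeR, with 0, 6 and 6 genes at an unadjusted edgeR p under 0.05. DESeq2 and limma-voom called 2 and 1 of the ETS genes as more positive and 0 genes of the other 2 lists. Of the 17 ETS differences, 13 were above 0, with a median of 0.22. Both dKO pairs lay above both WT pairs for 11 ETS genes (beside 27.8% of all tested genes) and below them for 0. In edgeR the coagulation list had 1 positive and 2 negative calls without dKO replicate 1 and 2 of each without dKO replicate 2. The ETS list had 1 positive call without WT replicate 2 and 3 without dKO replicate 2, and the unfolded protein response list had 1 negative call without dKO replicate 2. Thbs1, which encodes thrombospondin 1 and had the highest mean of the coagulation list, went from 430.2 and 521 to 1569 and 1778 CPM in WT and from 697 and 469.5 to 292 and 732 CPM in dKO. The dKO pairs moved in opposite directions, and the difference of -2.13 did not pass (SE 0.74, edgeR adjusted p = 0.237). It was -1.19 without dKO replicate 1 and -3.05 without dKO replicate 2, fits in which a single dKO pair leaves no spread within dKO. In DESeq2 without pairs it was -2 (DESeq2 adjusted p = 0.0144). Hspa5, the chaperone BiP, and Ets1, the members of the other two lists with the highest mean, rose in both genotypes and differed by -0.1 and -0.05 (edgeR adjusted p = 0.748 and 0.896).

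Some called genes had called responses of opposite sign in the 2 genotypes. Beside Lox, Nrarp, Ccnd1, E2f1, Nr4a2, Gclc and Cat, the 40 that fell in WT and rose in dKO included Fgfr2, a fibroblast growth factor receptor (mean 8.13 to 3.55 CPM in WT and 26.9 to 59.4 CPM in dKO), and Epha4 (14.9 to 9.27 and 24.8 to 46.8 CPM), named here after their values were seen. The 20 that rose in WT and fell in dKO included Lpl, lipoprotein lipase. It stood at 2.14 and 1.65 CPM in WT control, 30.7 and 24 CPM in WT with cytokines, 158 and 49.2 CPM in dKO control and 108 and 31.3 CPM in dKO with cytokines. All dKO libraries lay above all WT libraries, and the difference of -4.45 (SE 0.14, edgeR adjusted p = 1.26e-05) had the lowest p of all genes tested. Apol9a, an apolipoprotein L gene raised by interferon, went from 0.96 and 0.607 to 18.5 and 4.36 CPM in WT and from 1.25 and 0.333 to 0.182 and 0.0883 CPM in dKO (difference -6.15, SE 0.73, edgeR adjusted p = 0.00471); it has a near-identical copy, Apol9b, and reads may be split between them. The 8 genes that fell in both genotypes and more in dKO were Filip1l, Tsc22d1, Il17ra, Nrp1, Plekhf1, Lurap1l, Plcxd2 and Arfgef2.

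The remaining genes with the greatest positive differences had mostly fallen in WT. Cyp26b1, which degrades retinoic acid, stood at 42.6 and 65.5 CPM in WT control, 1.32 and 1.73 CPM in WT with cytokines, 8.76 and 22.8 CPM in dKO control and 3.41 and 11.9 CPM in dKO with cytokines. It fell 35.2-fold in WT and 2.15-fold in dKO (difference 4.03, SE 0.22, edgeR adjusted p = 0.000295). Ntn1, the guidance cue netrin 1, went from 80.9 and 40.3 to 11.4 and 5.46 CPM in WT and was 31.3 and 21.8 CPM in dKO control and 33.7 and 22.3 CPM in dKO with cytokines (difference 2.92, SE 0.14, edgeR adjusted p = 0.000111). Gdpd2, a glycerophosphodiester phosphodiesterase, differed by 3.17, Cdo1, cysteine dioxygenase, by 2.98 and Atp1b1, a sodium pump subunit with 18.7% of its exon bases in overlap with Nme7, by 2.68; all 3 fell in both genotypes. Bhlhe41, a repressor of the circadian clock, rose in dKO and did not pass in WT, from 5.45 and 5.82 to 25.8 and 12.1 CPM in dKO (difference 2.44, edgeR adjusted p = 0.0432).

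On the negative side, Ttc39a stood at 0.0739 and 0.202 CPM in WT control, 16.8 and 11.3 CPM in WT with cytokines, 18.5 and 5.28 CPM in dKO control and 59.3 and 23.9 CPM in dKO with cytokines. It rose in both genotypes, from a near-silent control in WT alone (difference -4.67, SE 0.44, edgeR adjusted p = 0.00309). Ifi204, a member of the DNA-sensing p200 family whose genes are similar in sequence, rose in WT from 3.43 and 3.24 to 56.9 and 27.1 CPM and was 8.89 and 8.73 CPM in dKO control and 4.09 and 7.91 CPM in dKO with cytokines (difference -4.16, SE 0.46, edgeR adjusted p = 0.0128). Rarres2, the chemoattractant chemerin, had 2 counts in WT control and 47 in WT with cytokines (ratio 27.7, 95% interval of the counts 7.25 to 235), and was at 7.03 to 32 CPM in dKO; 33.6% of its exon bases overlap Lrrc61.

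Markers of other cells differed between the genotypes, and their part in these results was not tested. Of 13 tested stellate cell, pericyte and fibroblast markers, Colec11 and Rgs5 had a more positive response (1.73 and 2.59) and Pdgfra and Pdgfrb a more negative one (-3.15 and -2.89), with 1, 2, 1 and 2 positive and 3, 2, 1 and 3 negative calls without each pair in turn. The list's summed level ran from 9242 to 10858 CPM in WT and from 13424 to 19194 CPM in dKO. Pdgfra, a receptor of platelet-derived growth factor, stood at 2.07 and 3.67 CPM in WT control, 32.2 and 25.4 CPM in WT with cytokines, 933 and 615 CPM in dKO control and 1174 and 616 CPM in dKO with cytokines. Of 5 tested leukocyte markers only Cd14, a co-receptor for lipopolysaccharide, passed (-1.17; 0 calls in the list without WT replicate 1 or dKO replicate 2), at 133 to 198 CPM in dKO and 246 to 545 CPM in WT, while Ptprc, which encodes CD45, had 1 count in all libraries together. The 3 tested hepatocyte markers had 0 calls by edgeR. The summed level of all 14 listed hepatocyte markers was 3.13 to 5.53 CPM in WT and 166 to 309 CPM in dKO. Ahsg was at 81.8 to 226 CPM in dKO, and Alb had 2 counts in all. The 6 tested cholangiocyte and mesothelial markers had 0 calls by edgeR as well. Spp1 was at 0.438 to 1.48 CPM in WT and 25.6 to 244 CPM in dKO. All 12 listed markers of this kind summed to 6 to 18 CPM in WT and 63.2 to 269.7 CPM in dKO. In each of these last lists 2 markers had an unadjusted edgeR p under 0.05, and of both together DESeq2 called 1, a cholangiocyte or mesothelial marker, and limma-voom 0. The gene called by DESeq2 was Spp1. Its difference of 2.11 did not pass in edgeR (edgeR adjusted p = 0.0991). The difference was 1.8 without dKO replicate 1 and 2.47 without dKO replicate 2. Without WT replicate 1, 1 hepatocyte marker was called as more positive.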

How the data were processed

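RNA from 8 libraries of sorted mouse liver endothelial cells was sequenced. The deposited table holds whole-number counts per Ensembl gene, not normalized by the authors; FastQC 0.11.5, STAR 2.7.6a and build GRCm38 are named in the submitters' processing notes, and no source used here gives the counting tool, annotation or use of strand. Unstranded and stranded TruSeq kits are named without saying which library used which, so reads of genes that overlap cannot be told apart. Of 52636 identifiers, 52403 have a symbol.

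Genes were filtered with filterByExpr over the 4 groups and scaled by TMM. The main fit was edgeR 4.0.16 (robust quasi-likelihood, R 4.3.3) with 1 coefficient per pair and 1 cytokine coefficient per genotype, two-sided, Benjamini-Hochberg adjusted over 15698 genes, threshold 0.05. It left 2 residual degrees of freedom, and its common coefficient of variation was 9.57%, against 24.3% without pairs. Standard errors are the log2 difference divided by the square root of F. CPM use TMM-scaled sizes, and paired responses use log2(CPM + 0.25). The fits were tested on simulated data. There the paired fits of edgeR, DESeq2 and limma-voom made false calls at above the nominal rate of the threshold.

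The labels do not say that equal numbers mark one animal or culture. Deviations from the group means correlated at 0.48 (WT) and 0.72 (dKO) between same-numbered control and cytokine libraries over 15698 genes, and at 0.04 to 0.15 across genotypes. Alternatives were no block, a shared block, DESeq2 1.42.0, limma-voom (limma 3.58.1), other size factors and filters, and each pair left out.

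The comparison and the 33 gene lists (736 distinct genes, 655 tested) were chosen with earlier results of these data known. Named genes are Erg and Fli1; the 10 largest differences in each direction past 0.05, given a group mean of 10 CPM or more, pairs of the genotypes apart and no provisional name; and, per list, the largest difference past 0.05 in each direction, given a group mean of 1 CPM or more, or else the member with the highest mean. Other genes were named as further calls of a list or after their values were seen. Exon overlaps and coordinates come from a GENCODE annotation of GRCm38. Counting intervals are exact at 95% and cover counting error only. The values of some list members are not reported here.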

Additional observations from a re-analysis of the deposited data

Results flagged for a closer look

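A difference between the genotypes in the same contrast, tested as the interaction term of edgeR's paired fit, flagged 508 genes with a more positive and 439 with a more negative cytokine response in dKO, and the 52 named genes among them. The values below are dKO minus WT responses on the log2 scale. The 21 more positive responses were led by 6.86 for Clec4g, 4.03 for Cyp26b1, 3.24 for Nqo1, 3.17 for Gdpd2, 3.04 for Gdf15, 3.04 for Il11, 2.98 for Cdo1 and 2.92 for Ntn1. They went on with 2.68 for Atp1b1, 2.59 for Rgs5, 2.44 for Bhlhe41, 2.12 for Col6a3, 2 for Nrarp, 1.75 for Nr4a2, 1.3 for Ccnd1 and 1.16 for Ace. Lower in size were 1.13 for Epas1, 1.01 for Pecam1, 1 for Rel, 0.76 for Bcl2 and 0.71 for Cd59a. The 31 more negative responses were led by -9.65 for Has2, -7.24 for Zbp1, -6.24 for Ccl8, -6.15 for Apol9a, -4.9 for Usp18, -4.89 for Mx2, -4.81 for Tgtp2, -4.67 for Ttc39a and -4.45 for Lpl, where the value for Has2 rests on 0 counts in WT control and that for Ccl8 likewise. The next were -4.16 for Ifi204, -4 for Rarres2, -3.7 for Cxcl5, -3.36 for Mmp3, -3.15 for Pdgfra, -2.93 for H2-Ab1, -2.43 for Cd274, -2.38 for Saa3 and -2.18 for Nlrc5. Then came -2.14 for Tnfaip2, -2.07 for Ripk2, -1.98 for Fas, -1.8 for Ch25h, -1.76 for Tnfsf15, -1.47 for Batf2, -1.36 for Mt2, -1.3 for Eno2 and -1.21 for Id2. Smallest in size were -1.2 for Vcam1, -1.17 for Cd14, -0.98 for Mcm6 and -0.91 for C1s1. None of these passed in edgeR without pairs, and no group had enough libraries for a check of single outlying values.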

How the results depend on the processing

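The counts of called genes depended on the pairing; the cause was not tested. With no replicate block, edgeR called 0 genes with a more positive and 0 with a more negative response (smallest adjusted p 0.1), 2733 genes changed in WT and 872 in dKO. With a replicate block shared by the genotypes it called 0 and 0 (smallest adjusted p 0.0514), 3337 in WT and 1351 in dKO. A pair of fits was added after these counts were seen: DESeq2 with no replicate block called 160, 231, 3438 and 1852, and limma-voom with the pair as a random effect called 95 and 83 (all 178 among the 947 of the paired edgeR fit, with an estimated correlation of 0.49). With no filter on low counts the paired fit called 964 and 671. Without each pair in turn, the more positive count ran from 164 (without WT replicate 1) to 1034 (without dKO replicate 2), the more negative from 193 to 756, the genes changed in WT from 2870 to 6585 and those changed in dKO from 2012 to 3457. With a pair left out, 1 genotype has a single pair, whose spread is assumed to equal that of the other genotype. DESeq2's size factors (487 and 429), DESeq2 with pairs (467 and 507), limma-voom with pairs (556 and 497) and a stricter filter (382 and 336) stayed within 1.5 times of the counts reported.

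Of the 947 called genes, all that were present kept their direction under every alternative except that 945 did without dKO replicate 2. The alternatives use the same libraries or a part of them, so a kept direction is not separate support. Of the 52 called named genes, 51 kept their call with DESeq2's size factors, 51 with DESeq2, 50 with limma-voom, 45 with no filter, 43 of 50 with the stricter filter, 32 with DESeq2 without the block, 9 with the random effect and 0 in edgeR without the block. Without each pair in turn, 3 named genes that were not called changed sign: Fli1 ran from -0.01 (without WT replicate 2) to 0.07, Ets1 from -0.29 to 0.21 (without dKO replicate 2), and Ahsg from -0.62 (without WT replicate 1) to 2.65, with -0.03 without dKO replicate 2. The fit has 2 residual degrees of freedom before moderation, and depth limits the values of genes near 0, such as Clec4g, Has2, Ccl8 and Rarres2.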

Other observations

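The 18 genes that rose in both genotypes and more in dKO held, besides the list members described above, genes of several kinds, chosen here after their values were seen. Cybb, the catalytic subunit of the phagocyte NADPH oxidase, went from a mean of 1.05 to 5.02 CPM in WT and from 14.8 to 154 CPM in dKO (difference 1.17 on the log2 scale, edgeR adjusted p = 0.0245). Lmo2, a partner of endothelial and blood transcription factors, went from 94.8 to 174 CPM and from 59.6 to 322 CPM (1.58, edgeR adjusted p = 0.0484), and Gja1, connexin 43, from 338 to 498 CPM and from 156 to 433 CPM (0.91, edgeR adjusted p = 0.0373). Mthfd2, an enzyme of mitochondrial folate metabolism, went from 65.2 to 119.7 CPM and from 20.5 to 71.3 CPM (0.92, edgeR adjusted p = 0.0217). For Gja1 and Mthfd2 the mean of the dKO control was below that of the WT control, and for Cybb it was above.

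Xist, expressed from the inactive X chromosome, and Ddx3y, on the Y chromosome, tracked the pairs: Xist was at 0.48 and 0.926 CPM in the WT replicate 1 libraries, 633 and 454 CPM in WT replicate 2, 0.849 and 1.32 CPM in dKO replicate 1 and 224 and 171 CPM in dKO replicate 2. Ddx3y was at 118 and 110.2 CPM, 0.0337 and 0.0393 CPM, 140.1 and 158 CPM, and 90.6 and 117 CPM in the same order. The dKO replicate 2 libraries held both.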
